A study of Mus musculus with 16 samples.

Results

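The genes of the proteasome were followed in bulk RNA of the mouse dorsal raphe nucleus (DRN), a midline brainstem region rich in serotonin neurons. Members were the genes whose symbol begins with Psma to Psmg followed by a digit, and 46 of the 14504 listed genes matched. In the GENCODE vM21 annotation 54 genes match this rule, and the 8 that are not in the table are the protein coding genes Psma8, Psmb9, Psmb11 and Psme2b and 4 pseudogenes. The 46 are 7 genes of the alpha ring and 7 of the beta ring of the core, 2 inducible catalytic subunits, 6 ATPases and 3 other subunits of the base, 8 subunits of the lid, 3 base chaperones, 4 activators, the regulator Psmf1, 4 core chaperones and Psmc3ip, a meiotic recombination gene that matches by name only.

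The proteasome is the barrel-shaped protease that degrades proteins tagged with ubiquitin. Its 20S core is a stack of alpha and beta rings whose catalytic beta subunits face an inner chamber, and the 19S cap, made of a base with an ATPase ring and a lid, binds, unfolds and deubiquitinates substrates. Under interferon, inducible catalytic subunits can replace the constitutive ones to form the immunoproteasome, which favors peptides for class I antigen presentation, and the 11S (PA28) activators open the core from its ends. Neurons use proteasomes in protein quality control and at synapses, and glucocorticoids are known for raising proteasome genes in wasting muscle.

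The tissue came from male C57BL/6 mice, adult at the time of the experiment. Control mice had been housed singly for the last days, while the others underwent chronic social defeat stress over 30 days and were then split by behavior into passive (PS) and active (AS) coping phenotypes. The injection was saline or dexamethasone (DEX, 2 mg/kg), which activates the glucocorticoid receptor, and the DRN was punched from frozen sections 6 h later. The groups were control saline (n = 3), control DEX (n = 3), PS saline (n = 2), PS DEX (n = 3), AS saline (n = 3) and AS DEX (n = 2). The study left out PS and AS samples given DEX with low Tph2, so those groups are a selected set, and the phenotypes come from clustering of behavior. The study describes further DRN libraries in other groups as well, which were not analysed here. Nothing says that a library pools animals, and the labels give no batch.

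In the titles of the libraries dep1 stands for the passive and dep2 for the active coping phenotype. Single libraries carry these titles as names, and their values are always given in the order con_sal_102, con_sal_104 and con_sal_114, con_dex_101, con_dex_116 and con_dex_122, dep1_sal_62 and dep1_sal_68, dep1_dex_6, dep1_dex_34 and dep1_dex_64, dep2_sal_8, dep2_sal_14 and dep2_sal_40, and dep2_dex_38 and dep2_dex_42. A normalized count is the number of reads divided by the size factor of its library, and a log2 difference is taken on log2(normalized count + 1). The libraries held 38207157 to 62447298 reads in the listed genes. The 7 serotonin neuron markers were all listed with none at 0, with Tph2 at 91764 to 182191 and Slc6a4 at 74627 to 129820 normalized counts, and Fkbp5, a target of the glucocorticoid receptor, stood at 1241 to 1536 in the 8 saline and 5578 to 6958 in the 8 DEX libraries.

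A set of 4 libraries stood apart. The libraries con_sal_104, con_sal_114, con_dex_116 and dep2_sal_40 had the 4 highest scores of the cytosolic ribosomal protein genes, 0.24 to 0.74 against at most 0.03 in any other library. A score is the mean over a gene list of the log2 deviation from each gene's mean over the 16 libraries. The proteasome genes took 0.506% of the reads in dep2_sal_40, 0.450% in con_sal_104, 0.449% in con_sal_114 and 0.420% in con_dex_116, and 0.329% to 0.370% in each of the other 12. None of the 4 belongs to a PS group or to AS DEX, so the medians and counts of comparisons that involve controls or AS saline are given with and without them. This set was chosen after seeing the data, by a score that had an r of 0.98 with that of the members. For most members, leaving it out takes the highest values from the control groups and AS saline. A shift of their medians is therefore largely built in and says nothing on the source of the variation.

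Promoter sequences are shown for 4 members that frame the results: Psmb5, the constitutive catalytic subunit with chymotrypsin-like activity; Psmb8, its inducible counterpart, with the lowest level of any proteasome subunit; Psmd12, a lid subunit that followed the other members from library to library; and Psme4, an activator that ran against them. Each is the RefSeq sequence in GRCm38.p6 from 250 bases before to 50 after a RefSeq start of the gene, written 5′ to 3′ on the strand of the gene. The Psmb8 window lies inside the gene as GENCODE vM21 annotates it, which starts further upstream. Capitals mark TGACNNNGC (the core of the antioxidant response element) in Psmb5, Psmd12 and Psme4, TTCNNNGAA (the gamma-activated site) in Psmb8, and CCGGAAG (an ETS core) in Psmd12 and Psme4. Both strands were searched, and a match on the other strand stands as its reverse complement.
Psmb5: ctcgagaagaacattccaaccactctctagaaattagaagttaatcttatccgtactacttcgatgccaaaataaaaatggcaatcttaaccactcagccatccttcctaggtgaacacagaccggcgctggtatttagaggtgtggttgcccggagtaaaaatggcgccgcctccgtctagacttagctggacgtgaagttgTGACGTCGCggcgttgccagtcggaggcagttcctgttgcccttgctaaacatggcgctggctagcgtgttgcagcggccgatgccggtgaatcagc
Psmb8: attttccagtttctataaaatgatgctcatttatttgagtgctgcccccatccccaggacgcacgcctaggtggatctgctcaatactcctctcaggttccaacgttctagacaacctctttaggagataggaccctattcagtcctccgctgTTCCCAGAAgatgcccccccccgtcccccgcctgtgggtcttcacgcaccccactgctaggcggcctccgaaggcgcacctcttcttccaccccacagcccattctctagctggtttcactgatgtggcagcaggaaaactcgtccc
Psmd12: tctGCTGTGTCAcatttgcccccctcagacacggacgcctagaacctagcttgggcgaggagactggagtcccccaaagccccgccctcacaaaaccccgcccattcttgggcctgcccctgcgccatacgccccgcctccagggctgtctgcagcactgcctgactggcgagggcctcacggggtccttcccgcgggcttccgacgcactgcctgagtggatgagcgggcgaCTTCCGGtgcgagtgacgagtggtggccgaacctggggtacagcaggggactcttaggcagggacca
Psme4: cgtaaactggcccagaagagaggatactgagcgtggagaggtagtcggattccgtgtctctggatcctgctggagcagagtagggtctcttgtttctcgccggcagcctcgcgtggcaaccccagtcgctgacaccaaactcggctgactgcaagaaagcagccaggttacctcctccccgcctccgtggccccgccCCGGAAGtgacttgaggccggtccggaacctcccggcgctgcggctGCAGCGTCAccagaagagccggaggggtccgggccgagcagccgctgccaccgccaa

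These windows are chr14:54617946-54618245, - strand, for Psmb5, chr17:34197945-34198244, + strand, for Psmb8, chr11:107479278-107479577, + strand, for Psmd12, and chr11:30771525-30771824, + strand, for Psme4. A promoter was given for 39 of the 46 members, all but Psmb1, Psmb2, Psmb7, Psmc3, Psmd3, Psmd7 and Psmg2. The ETS core was present in 15 of the 39 (38.5%) and in 9.93% of the 27025 genes with a promoter. That background includes genes outside the 14504 listed here, and the share among listed genes was not tested. Among its 15 holders are Psma6, the ATPases Psmc1, Psmc2 and Psmc6, the lid genes Psmd6, Psmd11, Psmd12 and Psmd13, and Psmc3ip, which matches by name only. TGACNNNGC occurred in 6 members (15.4%, against 14% of all genes), CCAAT (the CCAAT box) in 13 (33.3% against 41.1%) and TTCNNNGAA in 3, Psmb8, Psmd2 and Psmg1 (7.69% against 9.55%). GAAANNGAA (the core of the interferon-stimulated response element) occurred in 7 (17.9% against 9.76%), Psmb3, Psmb4, Psmc2, Psmd4, Psmd9, Psme1 and Psmg4. The inducible Psmb8 and Psmb10 and the activator Psme2 were without it. ACANNNTGT (the core of the glucocorticoid response element) was in none of the 39 and in 7.9% of all genes. CCGGAAG and TGACNNNGC are both held by Psmd12 and Psme4, whose r with the mean of the other members over the libraries was 0.93 and -0.55.

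In the DRN each role of the core and cap had a higher median level than the inducible subunits and the assembly factors. Levels of different genes are compared per kb of annotated exon. Per kb the highest were the ATPases Psmc5 (5443 normalized counts per kb) and Psmc1 (4073), followed by Psma6 of the alpha ring (3347), the catalytic Psmb5 (3241) and the base scaffold Psmd2 (3039). By role, the 6 ATPases had a median of 1997, the 3 constitutive catalytic subunits of 2315, the alpha ring of 1184 and the lid of 1134. Members that act in assembly were lower, with medians of 469.8 for the base chaperones and 346 for the core chaperones.

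The lowest members were Psmg3 (77.1 per kb), Psmb8 (67.0) and Psmc3ip (36.5), and the lowest value of any member was 25 reads, in Psmc3ip. Subunits that enter the alpha ring in equal number ranged per kb from 1049 for Psma3 to 3347 for Psma6. The mean normalized counts of Psma3 and Psma6 were close, at 4083 and 4130. The gap per kb comes from exon lengths of 3894 and 1234 bases. This length joins all annotated exons of a gene, so levels per kb depend on the annotation. For 14 members the annotation holds pseudogenes of at least 90% identity over 300 bases or more, up to 7 for Psmb3, and reads of these genes may be shared with them. Exons of 11 members, Psmb7, Psmb8, Psmd9 and Psmc3ip among them, overlap a gene of the opposite strand, and the strand setting of the counting is not given in the sources used here.

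**Figure D1:**
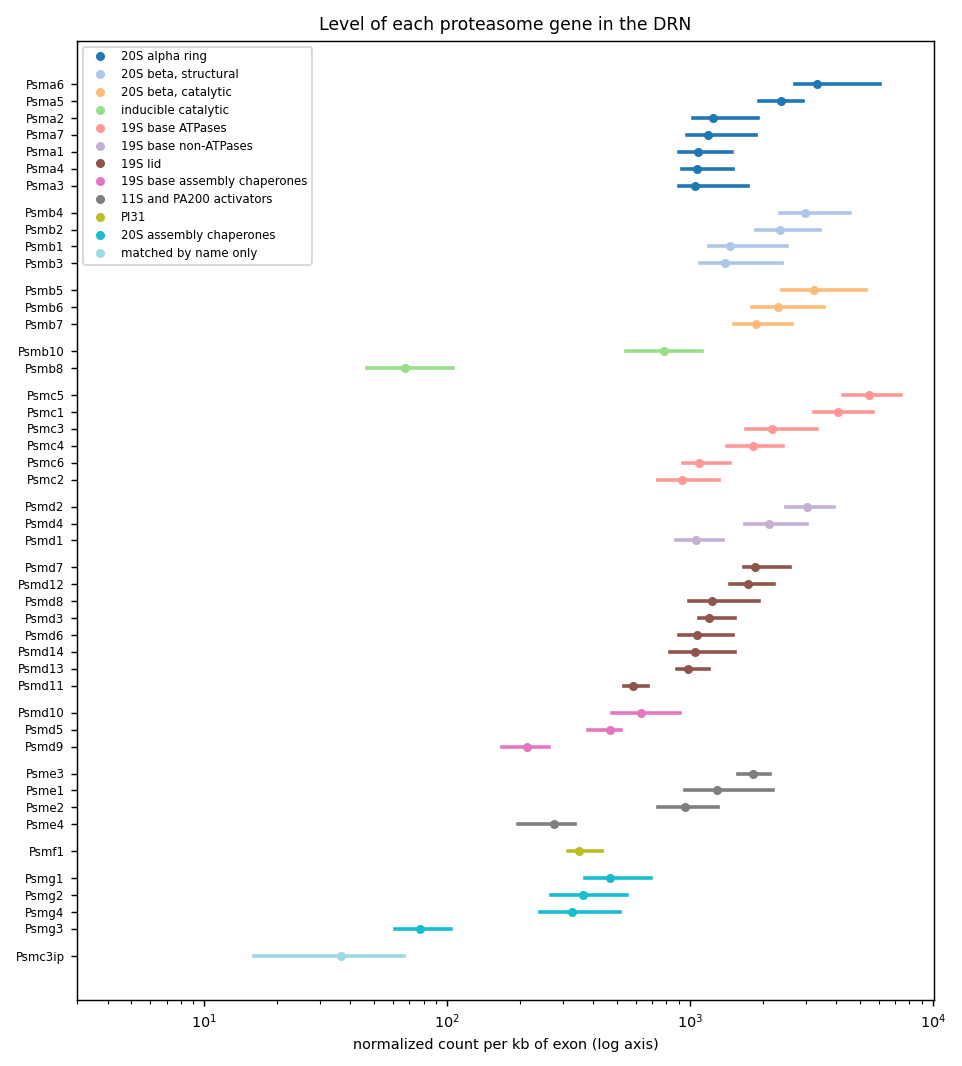
Level of the 46 members in the DRN, in normalized counts per kb of exon on a log axis, grouped by role; points are means over 16 libraries and lines run from the lowest to the highest library. The highest mean is that of Psmc5 (5443) and the lowest that of Psmc3ip (36.5), with Psmb8 (67.0) far below the constitutive Psmb5 (3241).

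The members varied together, and they did so between libraries of the same group. The mean score of the 46 was 0.45 in dep2_sal_40 and 0.04 and -0.12 in the other AS saline libraries, and it was 0.25, 0.20 and -0.06 in the 3 control saline libraries. Across the 16 libraries, with 1 size factor per library shared by all genes, the median r of a member with the mean of the other members was 0.87, with 31 members above 0.8 and 18 above 0.9. The 4 highest values were in exactly the 4 libraries named above for 20 members, and at least 3 of the 4 were for 36 members. dep2_sal_40 held the highest value of 30 members and con_sal_104 that of 12.

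**Figure D2:**
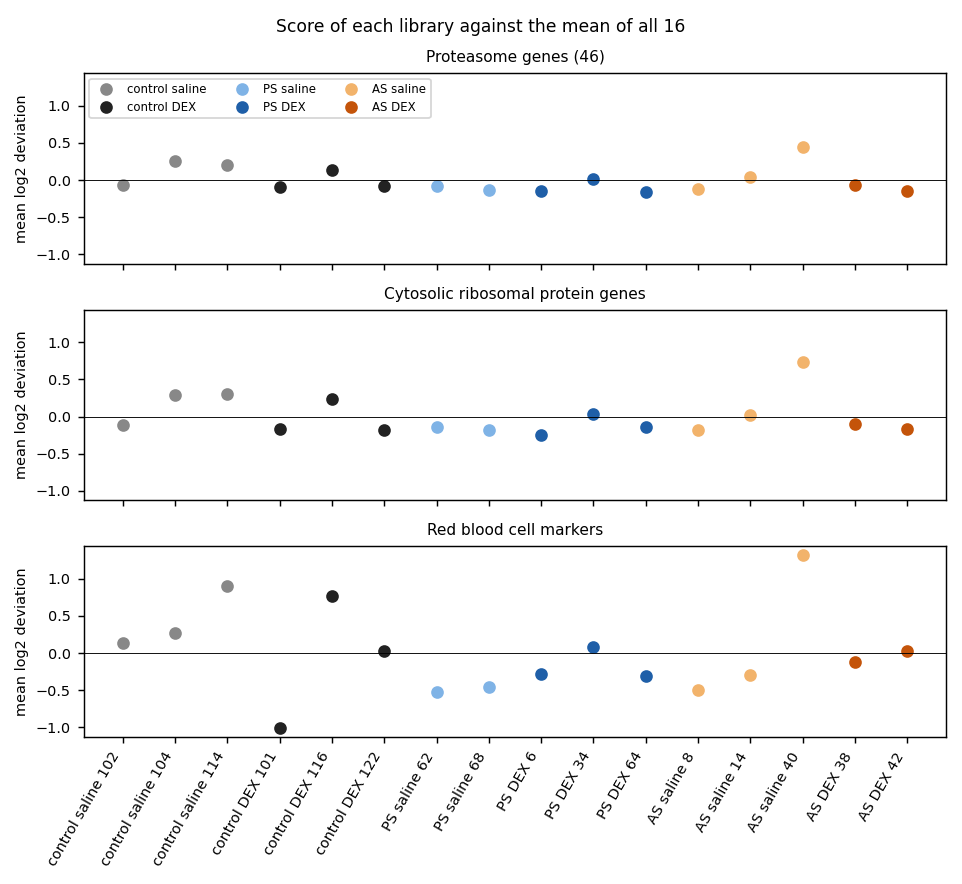
Score of each of the 16 libraries, as the mean log2 deviation from each gene's mean, for the 46 proteasome genes, the cytosolic ribosomal protein genes and the red blood cell markers, colored by group and labeled by group and title number. dep2_sal_40 is highest in all 3 panels (0.45, 0.74 and 1.32), and the libraries of one group do not lie together.

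Pairs of members correlated at a median r of 0.69, against -0.002 for pairs of all genes with a mean of at least 100. The value was 0.92 within the alpha ring, 0.90 within the structural beta subunits and 0.89 among the ATPases, and it was 0.56 within the lid. After removal of group means the alpha ring remained at 0.93 and all members at 0.69. The core and cap genes that followed the others least were Psmd7 (r = 0.42), Psmd3 (0.49), Psmd11 (0.53) and Psmd2 (0.56), all subunits of the lid or the base.

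**Figure D3:**
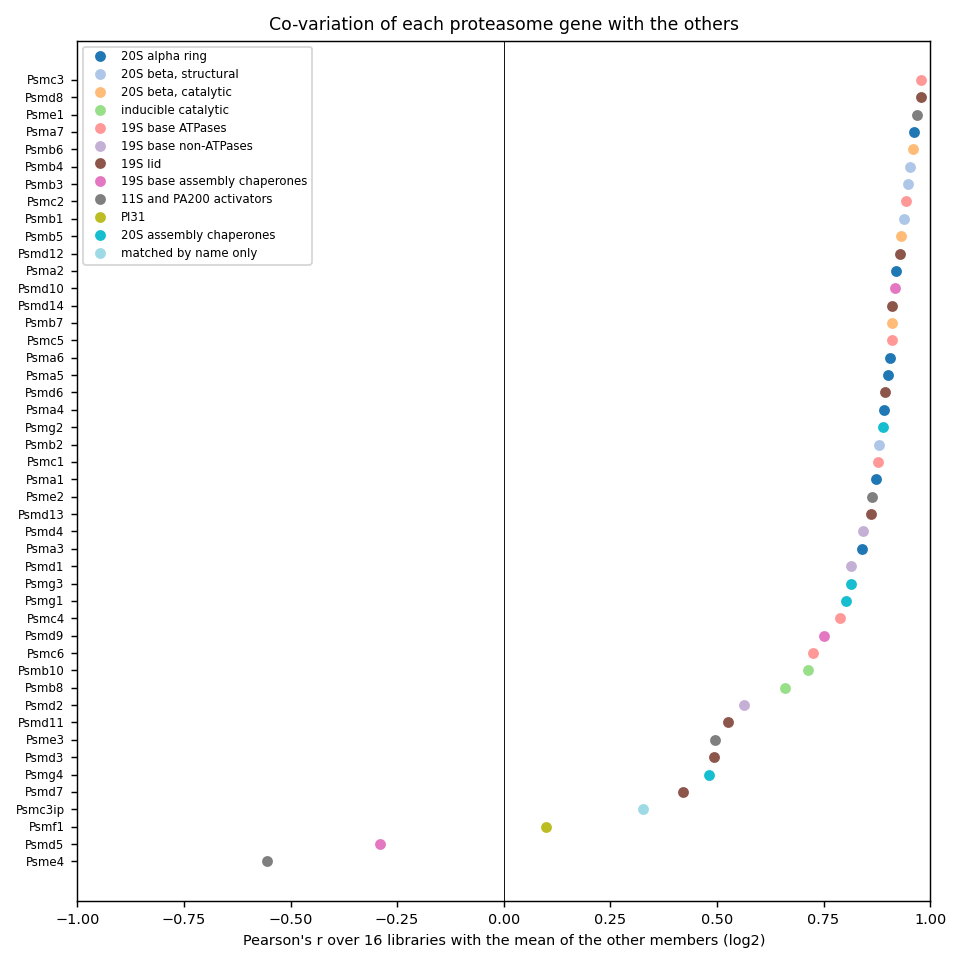
Pearson's r over 16 libraries of each member with the mean of the other members, on the log2 scale, sorted and colored by role. Most core and cap subunits lie above 0.8, while Psmf1 (0.10), Psmd5 (-0.29) and Psme4 (-0.55) lie at the bottom.

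Some members stood outside this pattern. Psme4, which encodes PA200, a large activator found on nuclear proteasomes, ran against the others (r = -0.55). Psme4 had normalized counts of 2264, 1640.3 and 2327 in control saline, 2512, 2421 and 2441 in control DEX, 2195 and 2473 in PS saline, 2244, 2558 and 2820.1 in PS DEX, 2265, 2265 and 2079 in AS saline and 2157 and 2335 in AS DEX. Its lowest library was con_sal_104, where most members were high, and its highest was dep1_dex_64, the lowest library of Psmc1, Psmd2, Psmd4 and Psmd8 among others. The base chaperone Psmd5 had an r of -0.29, and Psmf1, the gene of the regulator PI31, one of 0.10. Psmf1 had normalized counts of 2359.8, 2806 and 2033 in control saline, 2343, 2202 and 2214 in control DEX, 2316 and 2081 in PS saline, 2250.2, 2055 and 2131 in PS DEX, 2089, 2417 and 2119 in AS saline and 2449.8 and 2203 in AS DEX. Psmf1 was highest in con_sal_104 and lowest in con_sal_114, both among the 4 libraries, and in each phenotype DEX and saline overlapped.

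Psmc3ip also followed another course. Psmc3ip had normalized counts of 48.5, 79.4 and 52.6 in control saline, 29.0, 51.7 and 65.3 in control DEX, 71.1 and 54.1 in PS saline, 30.4, 67.7 and 120.5 in PS DEX, 42.5, 93.1 and 114.4 in AS saline and 109 and 32.5 in AS DEX. Its highest library, dep1_dex_64, stood 4.15 times above its lowest, con_dex_101, and its r with the ependymal cilia marker score was 0.88 over the 16 libraries, against 0.33 with the mean of the other members. The ependymal markers themselves (8 of 8 listed, none at 0) summed to between 1555 and 15252 normalized counts over the PS DEX libraries alone. Their part in the values of Psmc3ip was not tested.

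The genes most like the members lay outside the proteasome. Of the genes with a mean of at least 100, the 10 non-members with the highest r with the member mean included Rps6 (0.987), Rpl13, P4hb, Rpl9, Use1, Rps19, Rps16 and Rpl27a (0.981). Among the 100 genes with the highest r were 29 cytosolic ribosomal protein genes, 8 nuclear genes of oxidative phosphorylation and 5 members. The score of the members had an r of 0.98 with that of the ribosomal proteins, 0.97 with that of oxidative phosphorylation, 0.94 with ubiquitin precursors and E1 enzymes, and -0.05 with the mitochondrial genome. It had an r of 0.82 with red blood cell markers (4 of 5 listed, none at 0), whose summed normalized counts were 989 to 2034 in control saline, 445 to 1757 in control DEX, 645 to 684 in PS saline, 654 to 1015 in PS DEX, 681 to 2185 in AS saline and 802 to 855 in AS DEX. With serotonin neuron markers the r was 0.73 and with microglia markers 0.72. Strongly negative values were found with regulators of proteasome genes (-0.74), oligodendrocyte precursor markers (-0.70) and 8 DEX marker genes, Fkbp5 among them (-0.52). The part of blood, of cell composition or of RNA quality in the level of a library was not tested, and in bulk tissue fewer cells of a type and less RNA per cell cannot be told apart.

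Whether DEX changed proteasome genes was asked in each phenotype. No member passed the test in any of the 3: by limma with Benjamini-Hochberg adjustment over 14504 genes, 0 of 46 were called at an adjusted p under 0.1 in controls, PS and AS, where 1.26%, 0.703% and 0.689% of all genes were called. At an unadjusted p under 0.05 there were 4 members in controls, all lower, none in PS and 2 in AS, both lower, where 12.1%, 4.69% and 9.36% of all genes were. Members had a median log2 difference of -0.13 in controls, of 0.003 in PS and of -0.25 in AS, beside medians of 0.004, -0.004 and -0.006 over all genes. In controls 43 of 46 lay below 0, in PS 22 and in AS 42. When the DEX effect was averaged across phenotypes, 4.31% of all genes were called and no member, with 3 members, Psme2, Psmb10 and Psmb8, and 14% of all genes at an unadjusted p under 0.05, and the median was -0.13. edgeR and DESeq2 on the recovered reads also called 0 members in each of these 4 comparisons. The shares of all genes that edgeR and DESeq2 called are not given, so their member counts have no background, here and below.

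These medians moved with the 4 libraries. Without them the median was -0.03 for controls (26 members below 0), 0.003 for PS (22), -0.07 for AS (34) and -0.04 for the average (31), and no member was called. In controls this left 1 saline library. Leaving out dep2_sal_40 alone gave -0.07 in AS, and in controls the median ran from -0.23 without con_sal_102 to -0.07 without con_sal_104. It was -0.06 without dep1_dex_34 and 0.04 without dep1_dex_64 in PS.

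**Figure D4:**
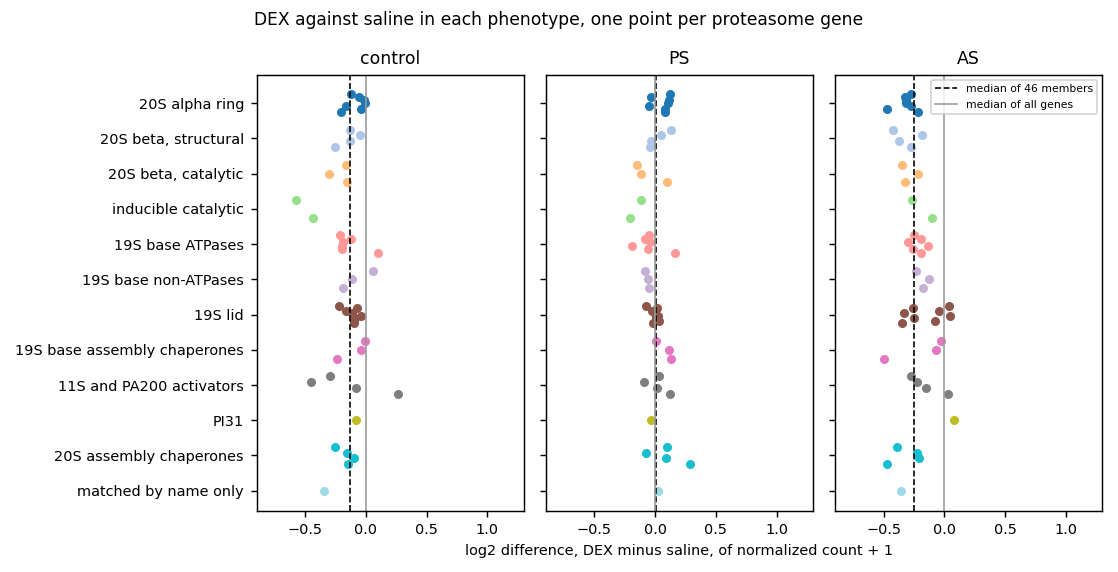
Log2 difference between DEX and saline of each member in controls, PS and AS, by role, with the median of the 46 members (dashed) and of all genes (gray). The dashed line lies at -0.13 in controls, 0.003 in PS and -0.25 in AS, and no single point passed the test.

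By role, the alpha ring had 7 of 7 genes below 0 in controls (median -0.06), 2 of 7 in PS (0.08) and 7 of 7 in AS (-0.32). Without the 4 libraries these counts were 1, 2 and 6 of 7 (medians 0.05, 0.08 and -0.09). Psma5 had normalized counts of 3009.7, 3706 and 3838 in control saline, 2952, 3579 and 2862 in control DEX, 2972 and 3073 in PS saline, 2926, 3302 and 2555 in PS DEX, 3044, 3155 and 3846 in AS saline and 2815 and 2679 in AS DEX. Psma5 had the smallest p of the alpha ring in the average, with a log2 difference of -0.17 (SE 0.08, adjusted p = 0.379), and AS DEX lay below AS saline while DEX and saline overlapped in controls and PS. The other 6 alpha ring genes had average differences of -0.15 (Psma6) to -0.07 (Psma3 and Psma4). The structural beta genes had medians of -0.13, 0.007 and -0.32 in the same order, and -0.01, 0.007 and -0.07 without the 4 libraries. Psmb4 had normalized counts of 5507, 7506 and 7002 in control saline, 5417, 6474 and 4889.9 in control DEX, 5503 and 4923 in PS saline, 5278, 5373 and 4578 in PS DEX, 5576, 5505 and 8879.7 in AS saline and 5475 and 5258 in AS DEX. For Psmb4 the average was -0.19 (SE 0.11, adjusted p = 0.452), and 8879.7 in dep2_sal_40 stood far from 5505 and 5576 in the other AS saline libraries, which were close to AS DEX. Psmb1, Psmb2 and Psmb3 had average differences of -0.14, -0.06 and -0.18, none of which passed.

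The constitutive catalytic subunits carry the caspase-like (Psmb6), trypsin-like (Psmb7) and chymotrypsin-like (Psmb5) activities. Psmb5 had normalized counts of 2564, 3623 and 3321 in control saline, 2669.8, 3176 and 2601 in control DEX, 2712 and 2653 in PS saline, 2158, 2651 and 2477 in PS DEX, 2868, 2961 and 4788 in AS saline and 2762 and 2627 in AS DEX. Psmb5 was lower in every PS DEX than in every PS saline library and likewise in AS, and the control groups overlapped. In PS the separation was slight, with 2651 in dep1_dex_34 against 2653 in dep1_sal_68. The average difference of Psmb5 was -0.22 (SE 0.11, adjusted p = 0.394). Psmb6 had normalized counts of 4110.4, 5680.5 and 5346 in control saline, 3595, 4717 and 3928 in control DEX, 4172 and 3860.1 in PS saline, 3726, 4029.8 and 3371 in PS DEX, 3851, 4119.8 and 6679 in AS saline and 4262 and 3903 in AS DEX. Saline and DEX overlapped in all 3 phenotypes for Psmb6, with an average of -0.21 (SE 0.11, adjusted p = 0.43). Psmb7 had normalized counts of 5727, 7917 and 8625 in control saline, 6224, 7875 and 5775 in control DEX, 5641 and 5562 in PS saline, 6045, 6738 and 5279 in PS DEX, 5729, 5717 and 8968 in AS saline and 5379.5 and 5211 in AS DEX. AS DEX was below AS saline for Psmb7, whose average was -0.13 (SE 0.12, adjusted p = 0.623).

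The inducible catalytic genes were the lowest catalytic members, and with Psme2 they had the most negative differences of all members in controls. Psmb8, which encodes the beta5i subunit, lies in the class II region of the major histocompatibility complex (GRCm38 chr17:34197721-34201454, + strand). Psmb8 had normalized counts of 204, 356 and 287 in control saline, 164, 206 and 186 in control DEX, 260.0 and 194 in PS saline, 159, 262 and 213 in PS DEX, 223, 242 and 265 in AS saline and 216 and 188 in AS DEX. In controls the DEX values lay between 164 and 206 and the saline values between 204 and 356, an overlap of con_sal_102 with con_dex_116. Both AS DEX values were below all AS saline values, and the PS groups overlapped. The log2 difference was -0.58 (SE 0.23, adjusted p = 0.349) in controls, -0.11 (SE 0.26) in PS and -0.27 (SE 0.26) in AS. It was -0.22 in controls without the 4 libraries, with con_sal_102 as the only saline library. Psmb10 (beta2i, chr8:105935735-105938444, - strand) stood at 782 normalized counts per kb, against 67.0 for Psmb8. Psmb10 had normalized counts of 1554, 1914 and 1461 in control saline, 1227, 1192 and 1203 in control DEX, 1318 and 1259 in PS saline, 1259, 1188 and 929 in PS DEX, 1154, 1305 and 1775 in AS saline and 1301 and 1289 in AS DEX. All control DEX values of Psmb10 were below all control saline values, at a log2 difference of -0.43 (SE 0.16, adjusted p = 0.299), while the difference was -0.10 (SE 0.17) in AS. Without the 4 libraries these were -0.36 and 0.08. Over the 6 groups the p of the limma F test was lowest for Psmb10 among the members and did not pass (adjusted p = 0.653). No member was called, where 1.57% of all genes were. At an unadjusted p under 0.05 there were 0 members (7.85% of all genes), and edgeR and DESeq2 each called 0.

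Set against its constitutive counterpart per kb, Psmb8 stood at 2.34% ± 0.25 (SD, n = 3) of Psmb5 in control saline and 1.75% ± 0.14 (SD, n = 3) in control DEX. The height of these percentages depends on annotated exon lengths of 3381 bases for Psmb8 and 899 for Psmb5. Their mean normalized counts over all libraries were 227 and 2913. The 3 control saline libraries (2.12% to 2.62%) lay above the 3 control DEX libraries (1.63% to 1.90%), while over all phenotypes saline (1.47% to 2.62%, n = 8) and DEX (1.63% to 2.63%, n = 8) overlapped. Psmb10 stood at 44.4% ± 6.25 (SD, n = 8) of Psmb7 in the saline and 40.3% ± 6.63 (SD, n = 8) in the DEX libraries, with PS DEX (35.3% to 41.8%) below PS saline (45.4% to 46.9%) and AS DEX (48.5% to 49.6%) above AS saline (39.7% to 45.8%). For Psmb8 the ratio was lowest in dep2_sal_40 (1.47%), where Psmb5 was highest.

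Microglia markers, whose cells are a known source of immunoproteasome RNA in brain, were lower after DEX. All 8 markers were listed with none at 0, and their summed normalized counts were 5663 to 5906 in control saline, 4722 to 5011 in control DEX, 5519 to 5760 in PS saline, 4608 to 5055 in PS DEX, 5705 to 7728 in AS saline and 5021 to 5514 in AS DEX. DEX was below saline in each phenotype, and 3 of the 8 were called lower in the average, as were 3 of 8 markers of myelinating oligodendrocytes. The microglia score had an r of 0.64 with Psmb8 and 0.69 with Psmb10, below its r of 0.78 with the constitutive Psmb5, the highest of any member. The part of microglia in the inducible subunits was not tested.

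**Figure D5:**
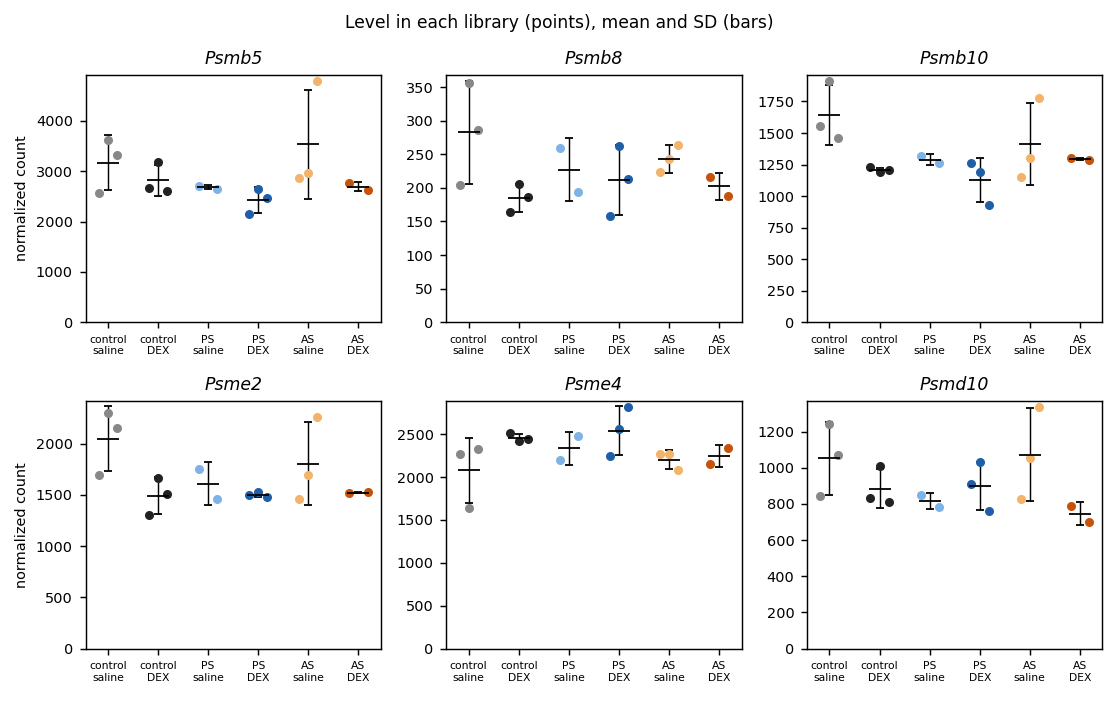
Normalized counts of Psmb5, Psmb8, Psmb10, Psme2, Psme4 and Psmd10 in the 6 groups, with points for libraries and bars for the mean and SD of 2 or 3 libraries, on linear axes from 0. Control DEX lies below control saline without overlap for Psmb10 and Psme2 and above it for Psme4, and dep2_sal_40 is highest for Psmb5 (4788) and Psmd10 (1337).

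Among the activators, Psme1 and Psme2 encode the alpha and beta subunits of PA28, which interferon induces, and lie close together on chromosome 14. Psme1 had normalized counts of 2663, 3859 and 3372 in control saline, 2423, 3079.8 and 2501 in control DEX, 2545 and 2309 in PS saline, 2530.5, 2835 and 2103 in PS DEX, 2418, 2799 and 4879 in AS saline and 2708 and 2596 in AS DEX. DEX and saline overlapped for Psme1 in every phenotype, with an average of -0.18 (SE 0.13, adjusted p = 0.55). Psme2 (chr14:55587441-55591113, - strand) had the smallest p of all members in the average. Psme2 had normalized counts of 1697, 2303 and 2150.2 in control saline, 1301, 1661 and 1511 in control DEX, 1757 and 1461 in PS saline, 1499, 1529 and 1483 in PS DEX, 1463, 1696 and 2257 in AS saline and 1520.4 and 1524 in AS DEX. Every control DEX value lay below every control saline value, at a log2 difference of -0.45 (SE 0.16, adjusted p = 0.281), and the difference was -0.09 (SE 0.17) in PS and -0.22 (SE 0.17) in AS. Without the 4 libraries it was -0.27 in controls and -0.05 in AS. In the average it was -0.26 (SE 0.10, adjusted p = 0.243 by limma), and -0.22 with adjusted p = 0.0856 once libraries were weighted, within a range of 0.0856 to 0.513 over 29 settings. The share of all genes that the weighted fit called in this average is not given here. Psme2 has 1 similar pseudogene in the annotation.

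Psme3 encodes PA28gamma, an activator of the nucleus that forms a ring of its own. Psme3 had normalized counts of 5808, 6280.2 and 5307 in control saline, 5645, 5595 and 5199 in control DEX, 5071 and 5061 in PS saline, 5641, 5152 and 4653 in PS DEX, 5468, 5529.9 and 5622 in AS saline and 4889.6 and 5109 in AS DEX. It was among the steadiest members, with a within-group SD of 0.09 on the log2 scale against a median of 0.21 over members, and its average DEX difference was -0.07 (SE 0.05, adjusted p = 0.565). Psme4, listed above, had the opposite sign, with every control DEX value above every control saline value (0.26, SE 0.13, adjusted p = 0.43) and an average of 0.14 (SE 0.08, adjusted p = 0.456), and the control difference was 0.13 without the 4 libraries. Psme2 stood at 55.9% ± 8.89 (SD, n = 8) of Psme3 per kb in saline and 48.2% ± 4.70 (SD, n = 8) in DEX libraries, and the ranges overlapped.

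Of the cap, the ATPases unfold substrates and thread them into the core. Psmc4 had normalized counts of 4046, 5223 and 4048 in control saline, 3821, 4139 and 3579 in control DEX, 3921 and 3908 in PS saline, 3714, 3530.3 and 3071 in PS DEX, 3717, 3431 and 5138 in AS saline and 3880.3 and 3491 in AS DEX. Psmc4 had the smallest p of the 6 in the average (-0.17, SE 0.09, adjusted p = 0.407), and all PS DEX values were below both PS saline values. The other ATPases had average differences of -0.18 (Psmc3) to 0.02 (Psmc6). Psmd2 is a scaffold of the base. Psmd2 had normalized counts of 11974, 15862 and 12873 in control saline, 12665, 12600.5 and 12096 in control DEX, 11960.5 and 11771 in PS saline, 12661, 11649 and 10012 in PS DEX, 12211, 12643 and 12516 in AS saline and 11427 and 11440.5 in AS DEX. Only AS DEX lay apart from its saline group, and the average was -0.10 (SE 0.07, adjusted p = 0.512). In the lid, the smallest p of the average was that of Psmd3 (Rpn3). Psmd3 had normalized counts of 6160.1, 7652 and 6214 in control saline, 5799.6, 5701 and 5577 in control DEX, 6108 and 5804 in PS saline, 5988, 5446 and 5579 in PS DEX, 5416, 5946 and 6130.3 in AS saline and 6048 and 5934 in AS DEX. Control DEX was below control saline without overlap (-0.22, SE 0.09, adjusted p = 0.357), and the difference was 0.04 (SE 0.10) in AS. Without the 4 libraries the control difference was -0.12. The other 7 lid genes stood at 584 (Psmd11) to 1857 (Psmd7) normalized counts per kb and had average differences of -0.15 (Psmd14) to 0.01 (Psmd11). Psmd14, the deubiquitinase of the lid, had both AS DEX values below all AS saline values.

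Assembly of the base and the core depends on dedicated chaperones. Psmd10 (gankyrin, chrX:140948429-140956728, - strand) binds an ATPase during base assembly. Psmd10 had normalized counts of 843, 1244 and 1069.6 in control saline, 831, 1008 and 811 in control DEX, 848 and 783 in PS saline, 907, 1029 and 763 in PS DEX, 828, 1054 and 1337 in AS saline and 790.0 and 700.2 in AS DEX. Both AS DEX values were below all 3 AS saline values, which spanned 828 to 1337, and the log2 difference in AS was -0.50 (SE 0.21, adjusted p = 0.489), or -0.33 without dep2_sal_40. Psmg1 had normalized counts of 558, 652 and 893 in control saline, 498, 722 and 534 in control DEX, 515 and 536 in PS saline, 555, 537 and 592 in PS DEX, 618, 764 and 933 in AS saline and 607 and 557 in AS DEX. For Psmg1, which pairs with Psmg2 to build the alpha ring, AS DEX was below AS saline (-0.39, SE 0.21, adjusted p = 0.555) and PS DEX above PS saline (0.09, SE 0.21), and the AS difference was -0.24 without the 4 libraries. Psmg4 had normalized counts of 170.4, 209 and 178 in control saline, 172, 179.9 and 149 in control DEX, 170.4 and 134 in PS saline, 169, 189.9 and 195 in PS DEX, 172, 285 and 215 in AS saline and 159 and 156 in AS DEX. Psmg4, a further core chaperone named here after its values were seen, differed by -0.48 in AS (SE 0.22, adjusted p = 0.53). With libraries weighted by their fit, Psmd10 (-0.47, adjusted p = 0.0503) and Psmg4 (-0.75, adjusted p = 0.0277) were called lower in AS, where that setting called 1402 genes against 100 in the unweighted fit. It gave dep2_sal_14 a weight of 5.66 against 0.88 for dep2_sal_8 and 0.18 for dep2_sal_40, and dep2_sal_14 held the highest Psmg4 value of the series.

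Members whose libraries did not overlap between arms were counted beside the same count over all genes. In controls 3 members had all DEX values below all saline values (7.43% of all genes) and 1 had them above (8.51%), and against con_sal_102 alone, without the 4 libraries, 19 were below and 16 above (37.4% and 36%). In PS the counts were 2 below (10.1%) and 2 above (11.2%). In AS they were 18 below (14.8%) and 0 above (15.1%), and the 18 include 3 alpha ring genes and Psmb4, Psmb5, Psmb7, Psmc1 and Psmc5. Without dep2_sal_40, the one library of the 4 in these groups, 19 were below and 1 above (20.4% of all genes each), beside the median of -0.07. These members vary together and are not independent counts.

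Whether stress alone altered proteasome genes was read from the saline libraries. By limma 0% of genes were called in PS against control, AS against control or AS against PS, and so no member. At an unadjusted p under 0.05 there were 0, 0 and 2 members (7.67%, 2.39% and 3.41% of all genes), the last being Psmg1 (0.53, SE 0.21, adjusted p = 0.728) and Psmg4 (0.53, SE 0.22, adjusted p = 0.728), both higher in AS than in PS. edgeR and DESeq2 also called 0 members in all 3. The median log2 difference of the members was -0.27 in PS against control, with 43 of 46 below 0, -0.03 in AS against control and 0.21 in AS against PS, with 43 of 46 above 0. Without the 4 libraries these medians were -0.03, 0.003 and 0.05, the first pair with 1 control saline library left. AS against control ran from -0.19 without dep2_sal_40 to 0.08 without dep2_sal_8. AS against control and PS against control share the 3 control saline libraries.

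By role, the alpha ring had a median of -0.21 in PS against control and 0.29 in AS against PS, with all 7 genes below 0 in the one and above 0 in the other. The ATPases had -0.28 and 0.19 and the core chaperones -0.34 and 0.44, each again with all members on one side. Without the 4 libraries the alpha ring stood at -0.01 (4 of 7 below 0) and 0.05 (6 of 7 above 0), the ATPases at -0.05 and 0.01 and the core chaperones at -0.19 and 0.30, the last still with all 4 on one side in both. The smallest adjusted p of a member in PS against control was that of Psme3 (-0.19, adjusted p = 0.571).

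In PS against control 19 members had both PS saline values below all 3 control values (14.2% of all genes), among them Psme1, Psme3, Psmb10 and 4 of the 6 ATPases. Against con_sal_102 alone 21 were below and 7 above (32.7% and 32.6% of all genes). In AS against PS 11 members had all AS values above both PS values (11% of all genes), among them the core chaperones Psmg1, Psmg3 and Psmg4. With dep2_sal_40 left out the latter count was 11 above and 3 below (15.4% and 17% of all genes).

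The phenotypes were also compared under DEX. No member was called in PS against control, AS against control or AS against PS, where 0%, 0.00689% and 0% of all genes were. None had an unadjusted p under 0.05, where 1.23%, 3.5% and 1.7% of all genes did. Neither edgeR nor DESeq2 called any member. The medians of the members were -0.11, -0.12 and 0.002, and the first pair was -0.02 and -0.03 without con_dex_116. In AS against control 18 members were below without overlap (14.9% of all genes) and 2, Psmb10 and Psmd3, above (15.4%), and without con_dex_116 there were 18 below and 8 above (20.1% and 21%). The differences between the DEX effects of the phenotypes called 0% of genes by limma in each of the 3 pairs, and edgeR and DESeq2 called 0 members. The medians of the members were 0.13 for PS minus control, -0.09 for AS minus control and -0.22 for AS minus PS. At an unadjusted p under 0.05 there were 0, 0 and 2 members (2.1%, 4.02% and 2.9% of all genes). These were Psmg4 (-0.76, SE 0.31) and Psmd10 (-0.63, SE 0.29), both with an adjusted p of 0.869. Without dep2_sal_40 the median was 0.05 for AS minus control and -0.06 for AS minus PS, and without con_dex_116 it was -0.006 for AS minus control. For PS minus control it ran from 0.08 without con_dex_122 to 0.22 without con_sal_102, and it was 0.02 without the 4 libraries. For AS minus control without the 4 libraries, with con_sal_102 as the only control saline library, most roles kept a median below 0. Among them were the alpha ring (-0.12, 6 of 7 below 0), the lid (-0.04, 5 of 8) and the core chaperones (-0.09, 3 of 4). Values above 0 were those of the inducible catalytic genes (0.23), the activators (0.05), Psmf1 (0.10) and Psmc3ip (0.07).

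Genes that work with the proteasome were examined in lists. Among the regulators of its genes (11 of 12 listed), 2 were called higher in the DEX average and none lower: Maff, a small Maf partner of Nrf factors (1.07, SE 0.16, adjusted p = 0.00157), and Mafk (0.38, SE 0.11, adjusted p = 0.0987). Maff ran from 80.4 to 128 normalized counts in saline and from 156 to 296 in DEX libraries, with no overlap, and was also called in PS (1.35, adjusted p = 0.0731). Nfe2l1, the factor that restores proteasome genes when the protease is blocked, ran from 18614 to 23308 in saline and 16904 to 21102 in DEX libraries. Of the class I antigen processing genes (12 of 13 listed) 1 was called in the average, lower: the peptide transporter Tap1 (-0.42, SE 0.09, adjusted p = 0.0139), at 248 to 390 in saline and 194 to 254 in DEX libraries.

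A further list held the ubiquitin ligases that glucocorticoids raise in wasting muscle and their transcription factors (4 of 5 listed). Its 2 genes called higher in the average were both transcription factors, Klf15 (0.67, SE 0.07, adjusted p = 7.93e-05) and Foxo1 (0.64, SE 0.11, adjusted p = 0.00254). The transcription factor Foxo3 did not pass (0.26, adjusted p = 0.104), and neither did any ligase. Klf15 was also called in each phenotype. No gene was called in any comparison among ubiquitin precursors and E1 enzymes, among shuttle and unfolding factors or among proteasome genes outside the naming rule. In the average the smallest p-values of the last 2 lists were those of Faf1 (-0.20, adjusted p = 0.251) and Pithd1 (-0.15, adjusted p = 0.372).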

How the data were processed

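PolyA RNA of the DRN was sequenced in 16 libraries with a strand-specific kit. Per the study's methods, trimming used fastp (v0.20.1), alignment to mm10 (GRCm38) used HISAT2 (v2.2.1), counting used featureCounts (Subread v2.0) on GENCODE vM22, and normalization used DESeq2 (v1.36.0). The strand setting is not given in the sources used here. The signal the authors deposited is the normalized count, reads divided by a size factor per library, and 100% of its values were whole reads (within 0.01 read) once multiplied by that factor. The authors' tables of comparisons hold a log2 fold change, a p-value and an adjusted p-value per gene and were not used.

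log2(normalized count + 1) was fitted with limma 3.58.1 (R 4.3.3) with a mean for each of 6 groups over all 16 libraries and eBayes with a trend. P-values were Benjamini-Hochberg adjusted over 14504 genes per comparison, with calls at adjusted p-values under 0.1. These p-values measure the spread between these samples, which the labels do not tie to separate animals in so many words. The pseudocount understates changes of low genes. edgeR 4.0.16 and DESeq2 1.42.0 were run on recovered reads as alternatives, with other pseudocounts, filters, scalings, library weights and leaving out each library. Exon lengths came from GENCODE vM21, similar pseudogenes from blastn 2.17.0 and promoters from RefSeq GRCm38.p6. The limma fit was tested on simulated counts in which genes varied independently. That test does not cover variation shared between genes, such as that of the members.

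Per library values are given for the member of each role with the smallest p in the DEX average, the catalytic subunits, the activators, and members called in any comparison (none). The members, lists and tests were chosen with earlier results of these data known. A few genes outside the members are not reported here.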

Additional observations from a re-analysis of the deposited data

Results flagged for a closer look

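Psmg1 had DEX differences of opposite sign in PS and AS, with no overlap between libraries in either. Every PS DEX library (537 to 592 normalized counts) was above both PS saline libraries (515 and 536), and both AS DEX libraries (557 and 607) were below all 3 AS saline libraries (618 to 933). Of all genes 11.2% were above without overlap in PS and 14.8% were below without overlap in AS. The share of all genes with both was not counted. The difference between the AS and PS effects was -0.48 on the log2 scale and did not pass limma (adjusted p = 0.869, unadjusted p = 0.135), and the lowest PS DEX value exceeded the highest PS saline value by under 1 normalized count.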

How the results depend on the processing

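None of the 46 members was called in any of the 14 comparisons under any alternative except library weights, which called 2 members in DEX against saline in AS (Psmd10 and Psmg4) and 1 in the average (Psme2). The weighted fit lets libraries count unequally, and in AS it called far more genes than the unweighted fit, as given above. Its share of all genes called in the average is not given here, so the Psme2 call stands without a background. The cause of these member calls was not tested. Over the fits without 1 library the count stayed at 0 in every comparison. Fits that left a PS saline or AS DEX library alone assume that it varies like the other groups.

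The median of the members in AS after DEX (-0.25) ran from -0.3604 (without dep2_sal_8) to -0.065547 (without dep2_sal_40) over the fits without 1 library. It was -0.065547 without the 4 libraries of high ribosomal score and -0.018001 with that score as a covariate, both alternatives chosen after seeing the data. For PS against control in saline these gave -0.034215 and -0.049632. With the covariate the median was 0.0014141 in AS against PS in saline and 0.00058686 in the difference of the DEX effects, AS minus PS. The ribosomal and member scores had an r of 0.98, so adjusting for the one takes out the shared variation of the members by construction, and those values near 0 say nothing on its source. Leaving out the 4 libraries picked by that score does so in part. The cause of the other shifts was not tested. Of 389 recomputed medians 367 kept their sign, and 382 moved by less than the within-group SD of the member score, 0.17. Leaving out a library of a group outside the comparison cannot move its median, and such fits are in this tally. The SD is also larger than most of the main medians, so the tally says little on how stable they are. No paired analysis was possible because the replicate numbers differ between groups. Depth bears most on Psmc3ip, with 25 reads in its lowest library.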
